A study of Mus musculus with 4 samples.

Results

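Replication-dependent histone genes encode the core histones H2A, H2B, H3 and H4 and the linker histone H1 that package newly made DNA. The genes were taken as the protein-coding genes of the GENCODE M21 annotation (mouse build GRCm38, the assembly also called mm10) whose symbol begins with Hist1h, Hist2h, Hist3h or Hist4h. There were 67 of them among 21951 protein-coding genes: 6 for H1, 18 for H2A, 18 for H2B, 12 for H3 and 13 for H4. Of these, 54 lie in the Hist1 cluster on chromosome 13, 10 in the Hist2 cluster on chromosome 3, 2 in the Hist3 cluster on chromosome 11 and 1, *Hist4h4*, on chromosome 6.

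Transcription of these genes is tied to S phase, when a cell copies its DNA, so their mRNA is made mainly by dividing cells. The mRNAs have, as a rule, neither introns nor a poly(A) tail. They end instead in a short stem-loop, which is bound by the stem-loop binding protein SLBP, cut shortly beyond the loop, and used to destroy the mRNA when replication stops. A library made by rRNA depletion, as here, can hold such mRNAs, whereas selection for poly(A) would lose most of them.

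The study asked what loss of the prolactin receptor's long form (LFPRLR) does to mammary tumors and to the regulatory T cells (Tregs) in them. Female Foxp3+EGFP Balb/c mice, 8 weeks old, in which the *Foxp3* promoter drives EGFP, received cells of the syngeneic mammary carcinoma line 4T1 in the mammary fat pad. A minipump then released an oligomer at 100 pmoles/h per mouse for 12 days, LFPRLR SMO or, in the controls, Control SMO. An SMO is an antisense oligomer that acts on splicing, here so that the long receptor form is not made, and the control binds no mouse sequence. There were 4 libraries, whole tumor under Control SMO, whole tumor under LFPRLR SMO, and EGFP-sorted tumor Tregs under each treatment, each made from the RNA of 6 mice combined in 1 tube. With 1 library per group no difference has a replicate check, no test is possible, and each ratio below describes these libraries only.

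The whole tumor files held 22481 (Control SMO) and 31908 (LFPRLR SMO) assembled transcripts, each with an FPKM (fragments per kilobase of transcript, scaled to sequencing depth). The sorted cells had 4838 transcripts, with the same coordinates and values under both treatment labels, so they are given once as a single set. None of the 12 T cell markers examined, *Cd3e*, *Cd4*, *Foxp3* and *Il2ra* among them, had a value above 0 in any library, the sorted one included. All 12 monocyte and macrophage markers had a value in every library, with a summed FPKM of 481 in the sorted cells. The sorted set is called tumor Treg below after its label, which its markers did not bear out.

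The sequences that set these mRNAs apart are the stem-loops at their 3′ ends. In the first 100 bases after the stop codon, a run of 16 bases was sought that begins with GG, ends with CC, has TT and A at fixed places and folds as 6 bases pairing with 6 across a loop of 4 (G:T pairs allowed). Of the 52 members with at least 16 annotated bases after the stop codon, 46 (88.5%) had one, against 11 of 20914 other protein-coding genes (0.0526%). Those 11 included *H2afx* and *H2bfm*, histone genes whose symbols the rule does not cover. The remaining 15 members are annotated with fewer bases after the stop codon. The 46 stem-loops had 8 sequences, and no form of an H4 gene was found in another class. One form was shared by 26 members of classes H1, H2A, H2B and H3, and another by 7 H4 genes. The lines below show a well-expressed member for 6 of the forms, from the GENCODE M21 transcripts, 5′ to 3′, with the 16-base stem-loop in capitals and 5 bases on each side.
Hist1h1e, chr13:23621782-23621797, minus strand, form of 26 members: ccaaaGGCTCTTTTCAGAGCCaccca
Hist1h4d, chr13:23581950-23581965, plus strand, form of 7 members: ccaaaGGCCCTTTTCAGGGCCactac
Hist1h3f, chr13:23544932-23544947, plus strand, form of 6 members: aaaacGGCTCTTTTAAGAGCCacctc
Hist1h4b, chr13:23757366-23757381, plus strand, form of 2 members: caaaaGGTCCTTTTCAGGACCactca
Hist2h4, chr3:96262939-96262954, minus strand, form of 2 members: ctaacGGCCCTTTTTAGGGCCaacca
Hist2h2ac, chr3:96220418-96220433, minus strand, form of 1 member: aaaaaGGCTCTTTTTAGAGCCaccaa

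The 2 remaining forms were GGCCCTTCTCAGGGCC of *Hist1h4a* and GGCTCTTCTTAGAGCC of *Hist1h3g*. The search required the first 6 bases to pair with the last 6, so pairing in all 8 forms was set by the search. The letters that set H4 forms apart stand on both arms of the stem.

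Most assembled whole tumor transcripts ended at or near these stem-loops. Of the 26 single-exon transcripts of members with a stem-loop in each library, 19 under Control SMO and 20 under LFPRLR SMO ended between 60 bases before and 30 bases after its last base. The median end was 14.5 bases before the last base of the stem-loop under Control SMO and 13.0 bases before it under LFPRLR SMO. The annotation runs far beyond this point for many members. Among 15 members with a value in both libraries and at least 100 annotated exon bases lying over 30 bases past the stem-loop, 11 had no assembled base there in either library. *Hist1h1d*, for example, has 4854 such annotated bases and *Hist4h4* 2415, and none was covered. *Hist1h1c*, a linker histone gene, was the clearest exception. Its transcript ended 1139 bases past the stem-loop under Control SMO and 681 bases past it under LFPRLR SMO. The transcript of *Hist1h4i* ended 236 and 313 bases past it. Each whole tumor transcript counted for a member carried a strand, which by the rule of assignment could only be that of the gene.

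**Figure D1:**
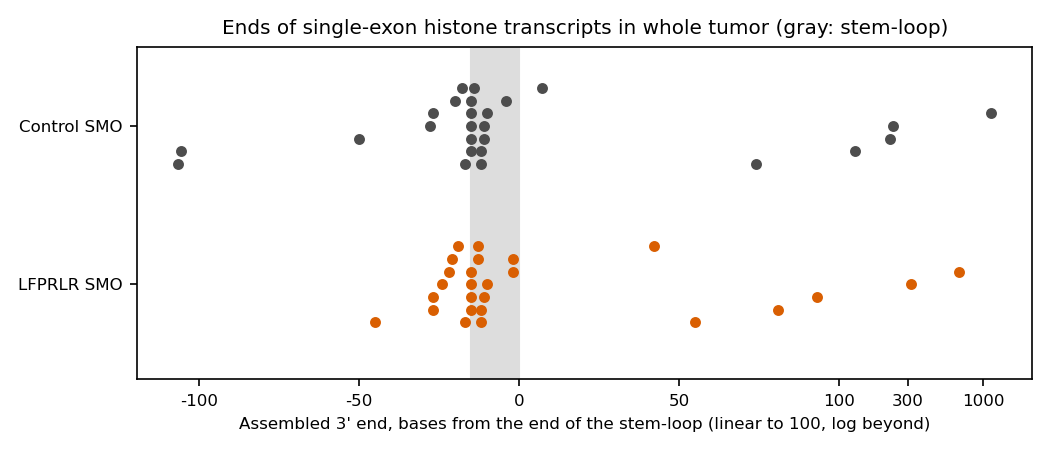
Position of the 3′ end of each single-exon whole tumor transcript relative to the last base of the member's stem-loop (x axis, bases, linear to 100 and logarithmic beyond), for 26 transcripts under Control SMO and 26 under LFPRLR SMO. The gray band is the stem-loop, and 19 and 20 ends lie between 60 bases before and 30 after its last base, while *Hist1h1c* lies farthest to the right at 1139 and 681 bases.

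In whole tumor, histone mRNA was less abundant under LFPRLR SMO than under Control SMO for nearly every gene that could be measured, and for all 5 classes as sums. A transcript was counted for a member when at least 50% of its exon bases lay in the member's exons on a compatible strand. In each library 35 members had a value, 33 of them in both. The summed FPKM of the members was 2588 under Control SMO and 1235 under LFPRLR SMO. Its log2 ratio was -1.07. The FPKM summed over all protein-coding genes was also lower, 293961 and 136858, so that histones held about the same share of it, 0.880% and 0.903%. The typical gene differed far less than that sum. Of the 33 members with a value in both, 31 (93.9%) were lower under LFPRLR SMO, against 55.7% of 8446 protein-coding genes. The median log2 ratio over the 37 members with a value was -0.88, against -0.10 over the 9970 protein-coding genes that reached an FPKM of 1 in either library.

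Counting differences of at least a factor of 2, 17 of the 37 members (45.9%) were lower under LFPRLR SMO, beside 17.2% of all genes tested. Higher by that factor were 3 members, *Hist1h4a*, *Hist1h3a* and *Hist2h2ab*, beside 16.9% of all genes. In whole tumor a lower level in the mix can stem from fewer cells that make an mRNA or from less mRNA per cell, and these cannot be told apart. With both libraries centred on the median gene (log2 ratio -0.10) the members had a median of -0.77, with 13 lower, beside 1548 of the 9970 genes (15.5%), and 3 higher, beside 1879 genes. Had FPKM been rescaled to an equal sum over all transcripts, the direction would turn, for members (median 3.65) and all genes tested (median 4.42). That sum was 8.997e+07 under Control SMO, 85.0% of it in 1 transcript of 96 bases, and 3.836e+06 under LFPRLR SMO.

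**Figure D2:**
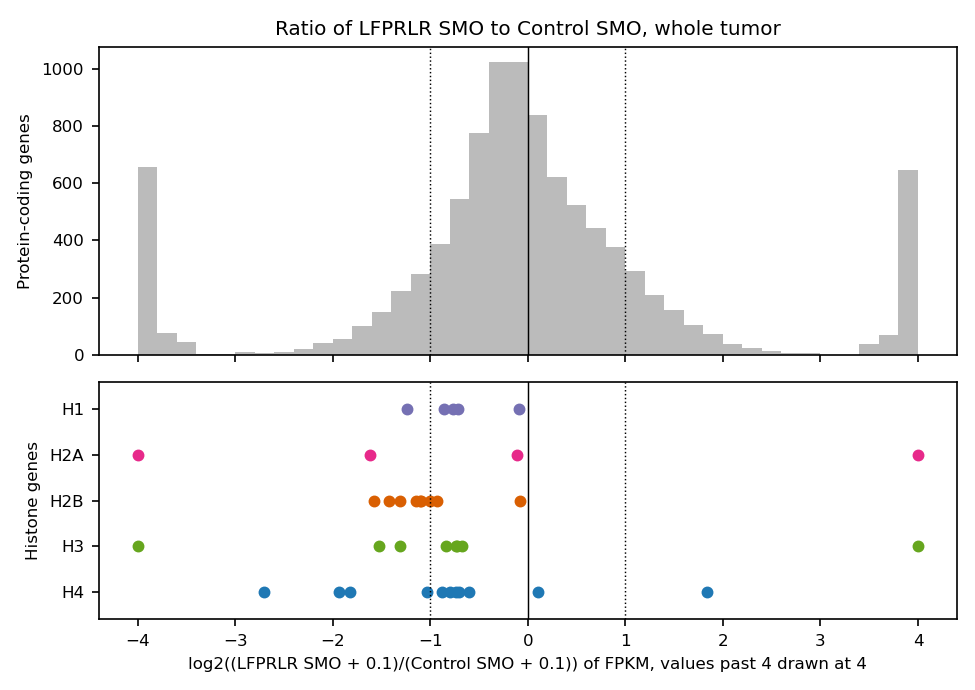
Whole tumor log2 ratios of LFPRLR SMO to Control SMO, as a histogram of other protein-coding genes that reached an FPKM of 1 in either library (top) and as 1 point per histone gene by class (bottom). Dotted lines mark a factor of 2, and ratios past 4 in size are drawn at 4. Of the 37 histone genes 33 sit left of 0, with 17 at or below -1 and 3 at or above 1.

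A second measure was used because short transcripts can inflate FPKM and because assembled lengths differed between libraries. The exon-weighted value of a gene adds up the FPKM of every transcript that overlaps its exons, each multiplied by the share of the gene's longest transcript that it covers. By this value 13 members were lower, beside 7.76% of 8204 genes, and 3 were higher, beside 3.04%. The log2 ratio of the summed values was -1.02.

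The deposited 95% bounds of FPKM gave another measure. For 25 of 36 member transcripts under Control SMO and 22 of 36 under LFPRLR SMO the FPKM lay above its own upper bound. The excess grew as transcripts became shorter: the FPKM of other protein-coding genes was at the median 1.003 times the midpoint of its bounds at 1000 bases or more, 1.58 times from 400 to under 500 bases and 4.04 times from 200 to under 300 bases in the Control SMO library. *Hist2h2bb*, at 329 bases, had an FPKM of 527 with bounds of 144 to 177. Some short transcripts lay within their bounds, *Hist2h2ac* (445 bases) among them, so the FPKM of short genes are on unequal footing. With the midpoint of the bounds in place of FPKM, 10 members were lower by a factor of 2 beside 15.5% of all genes, and 2 were higher beside 15.7%. By midpoint 32 of the 33 members with a value in both libraries were lower under LFPRLR SMO, beside 54.9% of 8446 protein-coding genes. *Hist1h4a* was the exception. The median log2 ratio was -0.73 over the 33, against -0.08 over those genes. Among the 32 members with a single transcript in each library, the bounds lay apart for 16. They were lower under LFPRLR SMO for 15, beside 15.3% of 2464 such genes, and higher for 1, *Hist1h4a*, beside 2.6%. The sets are not alike: FPKM lay within its own bounds in both libraries for 7 of the 32 members, against 2050 of the 2464 genes. Each pair of bounds comes from 1 library of pooled RNA, so it holds no spread between mice.

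**Figure D3:**
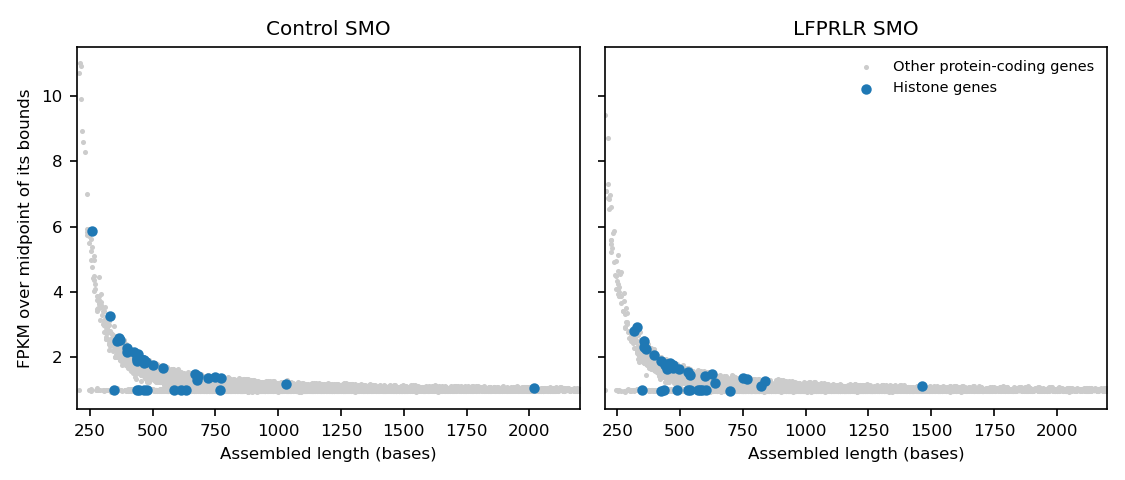
FPKM divided by the midpoint of its deposited 95% bounds (y axis, ratio) against assembled length (x axis, bases) for whole tumor transcripts of protein-coding genes, histone genes in blue. The ratio is near 1 for long transcripts and for a row of short ones, and climbs along a curve as length falls, so that the histone transcripts from 300 to under 400 bases under Control SMO have a median of 2.50.

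Levels spanned a wide range within each class. The highest member in every measure of whole tumor was *Hist2h2bb*, with an FPKM of 527 under Control SMO, 246 under LFPRLR SMO and 53.1 in tumor Treg. In FPKM it alone held more than any class sum other than H4 and H2B itself. By midpoint of the bounds it had only 161 and 83.8 in whole tumor, and class sums were not taken by midpoint. The gene lies at chr3:96269752-96270132 on the plus strand (GRCm38), annotated as a single coding exon with no UTR, so no stem-loop could be sought. None of its 50-base coding windows occurs in another gene. Tumor Treg values come from another program with its own normalization and are set beside the others as a description.

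**Figure D4:**
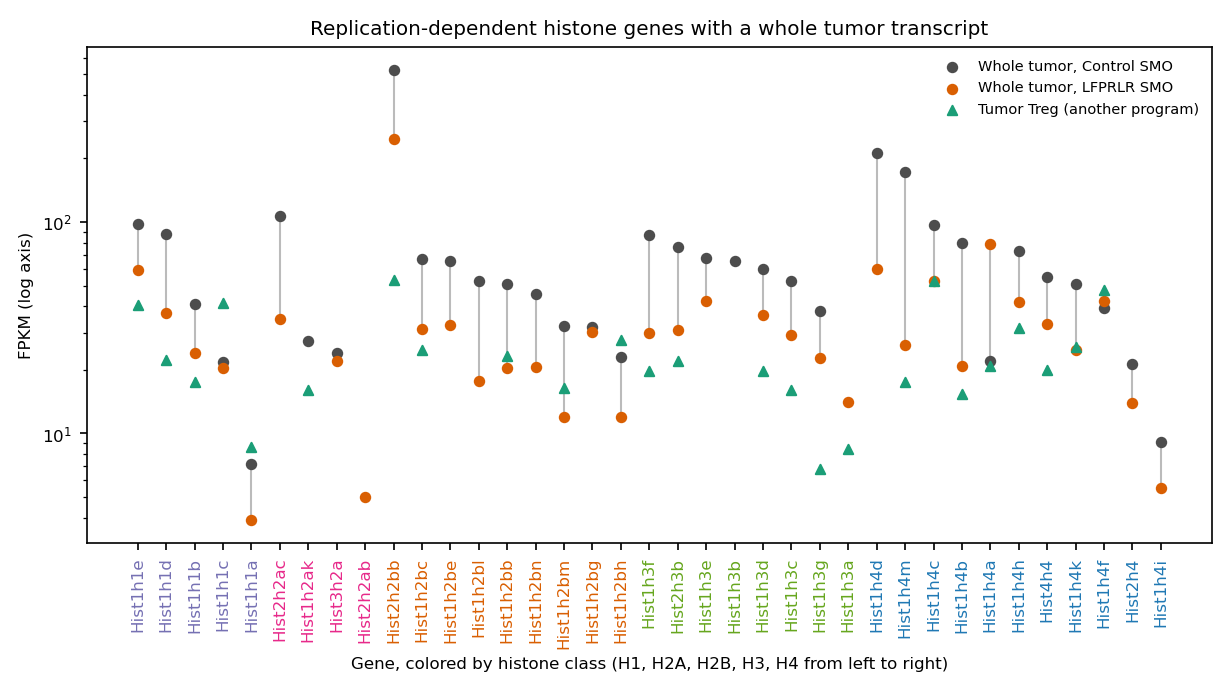
FPKM (log axis) of the 37 histone genes with a whole tumor value, ordered by class and level, with a gray line joining both whole tumor libraries and tumor Treg values (another program) as triangles. The gray Control SMO point lies above the LFPRLR SMO point for all genes with both except *Hist1h4a* and *Hist1h4f*, and *Hist2h2bb* is highest at 527 and 246.

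Linker histones H1 bind the DNA that enters and leaves the nucleosome. Of the 6 H1 genes 5 had whole tumor values, with a summed FPKM of 256 under Control SMO and 145 under LFPRLR SMO. *Hist1h1e* was the highest, at 98.4 under Control SMO, 59.6 under LFPRLR SMO and 40.4 in tumor Treg. *Hist1h1d* had 87.4, 37.1 and 22.4, and was the only H1 gene lower by a factor of 2, beside 17.2% of all genes tested. *Hist1h1b* had 41.2, 24.1 and 17.5. *Hist1h1a* had 7.14, 3.88 and 8.62. *Hist1h1c*, whose transcript ran past the stem-loop, hardly differed between treatments, at 21.8 and 20.4, and reached 41.6 in tumor Treg. *Hist1h1t*, a testis linker histone, had no value in any library. H1 genes share little coding sequence with other genes (0 to 26.5% of 50-base windows), the least of the 5 classes by median.

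H2B pairs with H2A in the nucleosome core, and its genes gave the largest class sum, 896 under Control SMO and 423 under LFPRLR SMO. Of 18 genes 9 had whole tumor values, and 7 were lower by a factor of 2, beside 17.2% of all genes tested. By the exon-weighted value 5 were, beside 7.76%. After *Hist2h2bb*, *Hist1h2bc* had an FPKM of 67.1 under Control SMO, 31.2 under LFPRLR SMO and 24.9 in tumor Treg. *Hist1h2be* had 65.6 and 32.6 in whole tumor. *Hist1h2bl* had 52.7 and 17.7, and by midpoint of the bounds 26.5 and 17.8. *Hist1h2bb* had 50.9, 20.5 and, in tumor Treg, 23.3. All 4 were lower by a factor of 2 in FPKM. By midpoint *Hist1h2bc* and *Hist1h2bb* were, while the log2 ratios of *Hist1h2be* and *Hist1h2bl* were -0.83 and -0.57, and that of *Hist2h2bb* -0.94.

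*Hist1h2bn* had an FPKM of 45.6 under Control SMO and 20.6 under LFPRLR SMO. *Hist1h2bm* had 32.2 and 11.9, with 16.4 in tumor Treg. *Hist1h2bh* had 22.9 and 12.0, with 27.7 in tumor Treg. By midpoint the log2 ratios of *Hist1h2bn*, *Hist1h2bm* and *Hist1h2bh* were -1.14, -0.86 and -0.78. *Hist1h2bg* stood apart from the class with 32.0 and 30.3, but its assembled lengths were 681 and 443 bases, and by midpoint it had 22.5 and 16.9. Tumor Treg listed *Hist1h2be*, *Hist1h2bl*, *Hist1h2bn* and *Hist1h2bg* at exactly 0.

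In whole tumor *Hist1h2bc* was the only member assembled in 2 forms. The single-exon form, the usual replication-dependent kind, had an FPKM of 51.0 under Control SMO (bounds 41.5 to 60.8) and 14.5 under LFPRLR SMO (8.54 to 20.9). A spliced form of 2 exons, whose last exon lies several kilobases downstream, had 16.02 (11.9 to 20.2) and 16.7 (12.5 to 20.98). The bounds of the first form lay apart and those of the second overlapped almost fully. Both forms start at the same base, and 97.6% of the gene's 50-base coding windows also occur in other genes. What part reads from other copies had in these values was not tested. In tumor Treg the single-exon form had 24.0 and the spliced form 0.961.

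Few H2A genes were assembled in whole tumor: 4 of 18 had a value, with a sum of 158 under Control SMO and 61.9 under LFPRLR SMO. *Hist2h2ac* was highest, with an FPKM of 107 and 34.8, within its bounds in both libraries, and was listed at 0 in tumor Treg. *Hist3h2a* had 23.9 and 22.1 in whole tumor, from transcripts of 720 and 471 bases. *Hist1h2ak* had 27.4 under Control SMO and no transcript of its own under LFPRLR SMO, although its exon-weighted values were 27.4 and 14.9, and it had 16.01 in tumor Treg. Its Control SMO transcript had 51.1% of its bases in the gene, just inside the rule. *Hist2h2ab* had a value under LFPRLR SMO only, 4.98.

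H3 genes summed to 447 under Control SMO and 206 under LFPRLR SMO, from 8 of 12 genes. The tails of H3 carry many of the marks read as active or silent chromatin. *Hist1h3f* had an FPKM of 86.5 under Control SMO, 29.9 under LFPRLR SMO and 19.8 in tumor Treg. *Hist2h3b* had 76.3, 30.8 and 22.01. *Hist1h3b* had 65.8 under Control SMO and no transcript under LFPRLR SMO. These are the 3 H3 genes lower by a factor of 2, beside 17.2% of all genes tested, although *Hist2h3b* had a log2 ratio of -0.36 by midpoint.

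*Hist1h3e* had an FPKM of 67.8 and 42.5 in whole tumor and was listed at 0 in tumor Treg. *Hist1h3d* had 60.2, 36.3 and, in tumor Treg, 19.8. *Hist1h3c* had 52.4, 29.3 and 16.1. *Hist1h3g* had 38.0, 22.8 and 6.77. These 4 were lower under LFPRLR SMO by similar factors, from 1.596 to 1.79. *Hist1h3a* had a value under LFPRLR SMO only, 14.1, and 8.40 in tumor Treg. *Hist1h3a* and *Hist1h3b* were thus listed in opposite libraries, and 66.9% and 95.5% of their 50-base coding windows also occur in other genes.

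H4 genes, which all encode the same protein or nearly so, summed to 831 under Control SMO and 399.3 under LFPRLR SMO, and 11 of 13 had values in both libraries. *Hist1h4d* had an FPKM of 212 under Control SMO and 59.7 under LFPRLR SMO, and 101 and 40.1 by midpoint of the bounds. *Hist1h4b* had 79.8, 20.8 and, in tumor Treg, 15.4. *Hist1h4k* had 50.9, 24.8 and 25.7. *Hist1h4m* had 172 and 26.3, with 17.5 in tumor Treg, but it was assembled at 257 bases under Control SMO and 530 bases under LFPRLR SMO, and by midpoint it had 29.5 and 26.3. These 4 are the H4 genes lower by a factor of 2, beside 17.2% of all genes tested. Of the 4, *Hist1h4d* and *Hist1h4b* were so by midpoint too.

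*Hist1h4c* had an FPKM of 97.1 under Control SMO, 52.8 under LFPRLR SMO and 52.8 in tumor Treg. *Hist1h4h* had 72.9, 41.8 and 31.4. *Hist4h4*, alone on its chromosome, had 54.7, 32.9 and 19.97. *Hist2h4* had 21.3 and 14.0 and *Hist1h4i* 9.09 and 5.53 in whole tumor, both listed at 0 in tumor Treg. These 5 were lower under LFPRLR SMO by factors of 1.52 to 1.84.

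*Hist1h4a* and *Hist1h4f* went the other way in FPKM. *Hist1h4a* had an FPKM of 21.97 under Control SMO, 78.5 under LFPRLR SMO and 20.9 in tumor Treg, from transcripts of 1030 and 357 bases. By midpoint it had 18.3 and 31.5, still higher under LFPRLR SMO. *Hist1h4f* had 39.2, 42.2 and 48.0, from whole tumor transcripts of 439 and 316 bases, and by midpoint it was lower under LFPRLR SMO (log2 ratio -0.46). Of its tumor Treg value, 9.77 came from a 2-exon transcript that starts in *Hist1h4c*.

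**Figure D5:**
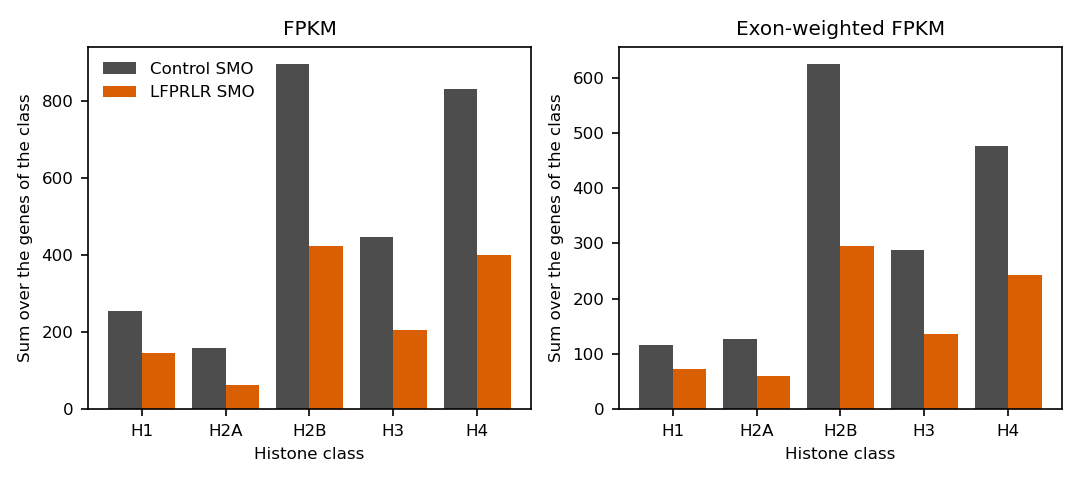
Summed FPKM (left) and summed exon-weighted FPKM (right) of the genes of each histone class in whole tumor, Control SMO in gray and LFPRLR SMO in orange, 1 library each. In all 5 classes the LFPRLR SMO bar is lower, for H2B 423 against 896 and for H1 145 against 256.

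As a log2 ratio of sums, the classes ranged from -0.82 for H1 to -1.35 for H2A, with H4 at -1.06, H2B at -1.08 and H3 at -1.12. Exon-weighted, H1 was at -0.66 and H4 at -0.97, while H2B (-1.08), H2A (-1.09) and H3 (-1.09) did not stand apart. The Hist1 cluster had a ratio of -1.07 and the Hist2 cluster -1.14. Of the histone total, H2B held 34.6% under Control SMO and 34.3% under LFPRLR SMO, H4 32.1% and 32.3%, H3 17.3% and 16.6%, H1 9.89% and 11.8%, and H2A 6.11% and 5.01%.

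Other short genes had ratios nearer 0. Among genes with 1 transcript of 250 to 1000 bases in each library, a comparison chosen after seeing the data, the median log2 ratio was -0.91 for 30 histone genes and -0.28 for 573 others. The length limit left out *Hist1h4a* and *Hist1h1c*, and without it the medians were -0.88 over 32 histone genes and -0.23 over 2432 others. For genes of 250 to 1000 bases with a single exon they were -0.91 and 0.08, the latter over 47 genes. A further comparison took genes with 1 transcript of any length in each library, the lengths within 20% of each other. The median was -0.84 for 19 histone genes and -0.25 for 1390 others. Of the 19, 6 were lower by a factor of 2 (31.6%), beside 3.38% of the others.

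Many histone genes are near copies, and reads that match several copies may be split or placed on any of them. At least 50% of the 50-base coding windows occurred in no other gene for 17 members, 12 of which had a whole tumor value. Over these 12 the median log2 ratio was -0.73. Of them 3 were lower by a factor of 2, beside 17.2% of all genes tested, and 1 higher, beside 16.9%. The 1 higher, *Hist2h2ab*, had no transcript under Control SMO. *Hist2h2bb*, *Hist1h1b*, *Hist1h1a* and *Hist4h4*, with no shared window at all, were all lower under LFPRLR SMO. Members absent from both whole tumor libraries shared more: a median of 89.5% of windows over 30 genes, against 70.5% over the 33 present in both. What part this had in their absence was not tested.

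The tumor Treg set had values above 0 for 47 members, 22 of which had none in whole tumor. It was assembled with a reference annotation as guide, and it listed 17 members at exactly 0. H2A held 16.9% of its histone sum of 928, against 6.11% and 5.01% in whole tumor. Of its 11 H2A genes 10 had no whole tumor value, led by *Hist2h2aa1* and *Hist2h2aa2*, a duplicated pair whose coding windows are all shared, at 28.7 and 27.2. *Hist1h2ab* had 20.3, *Hist1h2ah* 14.9, *Hist1h2ao* 12.5 and *Hist1h2ad* 11.5. *Hist1h2ac*, *Hist1h2ag*, *Hist1h2ap* and *Hist1h2ae* lay between 5.24 and 8.31.

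Among H3 and H2B genes seen in tumor Treg only, *Hist1h2bq* had an FPKM of 38.7, *Hist1h3i* 27.2 and *Hist1h2bj* 22.3. The duplicated H3 genes *Hist2h3c1* and *Hist2h3c2* had 21.6 and 18.1, and *Hist1h3h* 13.3. *Hist1h2bf*, *Hist1h2br* and *Hist1h2bp* had 11.5, 8.51 and 7.15. *Hist1h2ba*, a testis H2B gene, had 1.26, *Hist1h2bk* 0.610 and *Hist3h2ba* 0.327. Nearly all of the *Hist1h2bj* value, 21.8, came from a 2-exon transcript that starts in *Hist1h2bk*. In all, 8 members had no value above 0 anywhere: *Hist1h2ai*, *Hist1h2an*, *Hist1h2af*, *Hist1h2aa*, *Hist1h4j*, *Hist1h4n*, *Hist1h1t* and *Hist2h2be*.

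H2A and H2B genes often lie head to head and share the stretch between them as a promoter. There were 12 such pairs, 175 to 305 bases apart. In whole tumor both partners had a value for *Hist1h2ak* and *Hist1h2bn* only. *Hist1h2bl*, *Hist1h2bg* and *Hist1h2bc* had values without their H2A partner, and *Hist2h2ac* without *Hist2h2be*. In tumor Treg 8 H2A and 8 H2B partners had values. The pair *Hist1h2ad* and *Hist1h2bf* was even there, at 11.5 and 11.5.

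Promoters of 62 members were found in RefSeq (GRCm38.p6), as the 250 bases before the start of the gene. The letters CCAAT, on either strand, occurred in 51 of them (82.3%) against 33.8% of 32851 promoters in all. All 18 H2A and all 16 H2B promoters held them, but 3 of 12 H4 promoters did. TATAAA occurred in 46.8% against 12.4%. The octamer ATTTGCAT occurred in 20.97% against 1.601%, in 7 H2A and 6 H2B promoters and in no other class, *Hist2h2bb* among them. These matches are descriptions of sequence. A promoter between a pair counts for both partners.

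Lists of genes that act with the histones had median ratios nearer 0. The histone variants listed as not tied to S phase, though *H2afx* among them has a stem-loop, had values for 9 of 11 genes. None was past a factor of 2, and the median log2 ratio was -0.33. *H3f3b*, which encodes H3.3, had an FPKM of 121 under Control SMO and 93.3 under LFPRLR SMO. *H3f3a* had 49.3 and 30.3, *H2afz* 35.1 and 30.1, and *H2afy*, a macroH2A gene, 16.3 and 9.94. *Cenpa*, the centromeric H3, had 9.85 and 18.3, but 2.88 and 2.71 exon-weighted.

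Of 16 genes for transcription and 3′ end processing of histone mRNA, 13 had values, with a median log2 ratio of -0.13. By a factor of 2, 1 was higher and 1 lower, beside 16.9% and 17.2% of all genes tested. Neither was so when exon-weighted. *Fip1l1*, a polyadenylation factor, had an FPKM of 34.2 and 10.2, but 7.41 and 6.30 exon-weighted. *Srrt* had 6.38 and 15.9, *Cstf3* 13.6 and 9.07, and *Cstf2* 13.2 and 9.64. *Slbp*, the gene of the stem-loop binding protein, named here after its values were seen, had 6.47 under Control SMO, 5.97 under LFPRLR SMO and 3.07 in tumor Treg.

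All 13 genes for decay of histone mRNA had values, with a median of -0.30. By a factor of 2, 1 was higher and 4 lower, beside 16.9% and 17.2% of all genes tested. By the exon-weighted value the median was -0.05, with none higher and 1 lower, beside 3.04% and 7.76% of all genes. *Lsm6* had an FPKM of 29.9 and 5.42 (exon-weighted 3.49 and 1.42). *Xrn1*, a 5′ exonuclease, had 29.0 and 11.9, and *Tut7*, which adds uridines to the stem-loop end, 12.2 and 28.3, but exon-weighted these were 3.92 and 4.17, and 5.89 and 5.69. The 16 histone chaperone genes had a median of -0.15, with 3 lower by a factor of 2, beside 17.2% of all genes tested. By the exon-weighted value none was lower by that factor, beside 7.76%. *Nap1l1* had 81.9 and 113 (exon-weighted 33.5 and 17.4), and *Rbbp4* 25.0 and 27.2. *Ssrp1* had 34.7 and 11.3 (exon-weighted 10.8 and 8.60), and *Chaf1a* 6.48 and 2.32 (exon-weighted 1.196 and 1.03).

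Of 30 genes for DNA replication in S phase, 28 had values, with a median log2 ratio of -0.50. By a factor of 2, 5 were higher and 8 lower, beside 16.9% and 17.2% of all genes tested. Exon-weighted, 24 genes had values of at least 1, with a median of -0.29. Of these 2 were higher and 4 lower, beside 3.04% and 7.76% of all genes. *Dut* had an FPKM of 22.7 and 11.2 (exon-weighted 5.15 and 4.55) and *Mcm6* 18.1 and 9.72 (6.73 and 6.49). *Pcna*, the sliding clamp of DNA polymerase, had 14.8 and 9.30 (14.2 and 8.92). *Tyms* had 8.77 and 1.49 (1.51 and 0.434), and *Cdc45* 2.11 and 6.62 (0.819 and 1.95). The 16 mitosis genes had a median of -0.50, and 14 of them were lower under LFPRLR SMO, beside 55.0% of all genes tested. Lower by a factor of 2 was 1 of them, beside 17.2%, and exon-weighted 3 were, beside 7.76%. *Top2a* had 50.6 and 35.0, *Mki67* 36.7 and 30.8, *Cdk1* 14.3 and 9.31, *Birc5* 16.7 and 6.16, and *Plk1* 4.81 and 2.47.

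By summed FPKM the cell type markers differed less than the histones, apart from the erythroid ones. Single markers could differ more, *Col1a2* (log2 ratio -1.35) among them. The summed FPKM of the 4T1 epithelial markers was 313 under Control SMO and 307 under LFPRLR SMO (9 of 10 with a value). *Krt18* had 124 and 112, *Krt8* 51.0 and 49.1, *Epcam* 47.7 and 53.3, *Cdh1* 11.8 and 22.3, and *Spint2* 21.8 and 11.04. Exon-weighted, the epithelial sums were 264 and 233, with *Epcam* at 40.6 and 28.6 and *Cdh1* at 11.7 and 11.2. The fibroblast markers summed to 892 and 844 (9 of 10 with a value). *Col3a1* had 278 and 361, *Col1a1* 197 and 206, *Col1a2* 224 and 87.8, and *Lum* 5.67 and 7.89. Exon-weighted, the fibroblast sums were 211 and 244, with *Col1a2* at 53.6 and 46.6. The monocyte and macrophage markers summed to 605 and 417, with a median log2 ratio of -0.49, and 10 of 12 were lower, beside 55.0% of all genes tested. *Apoe* had 206 and 121, *Lyz2* 110 and 76.1, *Ctss* 134 and 105, and *Cd68* 6.59 and 3.94. The exon-weighted sums of these markers were 475 and 318. Of 6 erythroid markers *Hbb-bs* had 35.0 under Control SMO and *Alas2* 1.17 under LFPRLR SMO, each with a value in that library only. No T cell marker had a value in either. The part of the cell mix in the histone values was not tested.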

How the data were processed

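Libraries were made from total RNA after rRNA depletion. The deposited files list transcripts. Whole tumor reads were assembled by the authors with Cufflinks on mm10, and each transcript carries a deposited FPKM, its 95% bounds, a coverage and a relative score (not used). For tumor Tregs the deposited FPKM and coverage came from StringTie 1.2.3. The submitters' processing notes also name HISAT2 2.0.4 and Cuffdiff 2.0.2. Read counts and read length are not given in the sources used here, so depth is known only as coverage: 1 FPKM stood for a median read depth of 1.88 with Control SMO, 1.75 with LFPRLR SMO and 0.947 in tumor Treg. The authors' tables of differences were not used.

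Transcripts were assigned to GENCODE M21 genes by at least 50% of exon bases on a compatible strand, ties going to the gene with the shorter longest transcript, and FPKM were summed per gene. Ratios are log2((LFPRLR SMO + 0.1)/(Control SMO + 0.1)), which understates low genes and lets the pseudocount set the ratio of a gene with no transcript in 1 library. Folds of single members were taken without it. A gene with no transcript is not shown to be unexpressed. Counts are over genes with a value of at least 1 in at least 1 library. The members, the lists, the measures and the rule for named genes were chosen with earlier results of these data known. Members with an FPKM of at least 5 were named, and in each other list the 3 highest and the 2 with the largest ratio. The midpoint of the bounds, the unique-window subset, rescaled FPKM and the length-matched comparison were added after seeing the data. The alternatives were pseudocounts of 0.01 and 1, other filters, a factor of 3, other rules of assignment, centring, coverage, and transcripts of at least 300 bases. Assignment, counting and the stem-loop search were tested on simulated data. Python 3.11.15 and numpy 2.4.6 were used.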

Additional observations from a re-analysis of the deposited data

How the results depend on the processing

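The median log2 ratio of the histone genes (-0.88) and that of their summed FPKM (-1.07) stayed within a factor of 1.5 under all but 1 of 16 and 15 alternatives. The exception was FPKM rescaled to the same sum over all transcripts, which turned them to 3.65 and 3.48. By a factor of 2, 35 members were then higher and 2 lower. Nearly all genes turned with them: 9191 of 9970 were higher and 776 lower, with a median of 4.42. The factor behind this rescaling was 4.55 on the log2 scale. Of the Control SMO sum, 8.997e+07, 85.0% lay in 1 transcript of 96 bases. What was left of it still exceeded the whole LFPRLR SMO sum, 3.836e+06. Rescaling without that transcript was not run. Rescaled over transcripts of at least 300 bases, the median was -0.73. The 17 of 37 members lower became 11 of 29 when 90% of a transcript's bases had to lie in the gene, a rule under which 26.2% of all genes were lower. They became 6 at a factor of 3, for which no share of all genes is given here. By midpoint of the bounds they became 10, beside 15.5% of all genes. Of 12 members with mostly unique coding windows, 3 were lower. The 3 members higher became 6 under the 90% rule, beside 1521 of 9330 genes, and stayed 3 at a factor of 3. They became 2 by midpoint, beside 15.7% of all genes, and 1 over mostly unique windows. Over genes listed in both libraries they became 1, beside 937 of 8446 genes. Members listed with Control SMO went from 35 to 23 under the 90% rule, because assembled transcripts often reach past the annotated gene. The other alternatives for listed members moved no count by more than a factor of 1.5. The exon-weighted value left the median of each of the 6 gene lists below 0, but moved their counts past a factor of 2: S phase genes lower went from 8 to 4 and higher from 5 to 2, decay genes lower from 4 to 1, chaperone genes lower from 3 to 0 and mitosis genes lower from 1 to 3. No paired analysis was possible because each group is 1 library. Values of members that differ in assembled length between libraries (*Hist1h4m*, *Hist1h4a*) are the least secure, and depth is known only as coverage.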
